A study of Mus musculus with 6 samples.

Results

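The 46 genes described here encode RNA polymerase I (Pol I), its initiation factors and the proteins that turn its transcript into ribosomal subunits. They were chosen by gene symbol from the deposited table of 28789 genes, and all 46 symbols were found. The cells were of the TCMK1 line, renal tubular epithelium of the mouse, and in all 6 libraries they had been given angiotensin II (Ang II), a peptide hormone that raises blood pressure and is used to provoke injury responses in kidney cells. The labels put 3 libraries in a control genotype and 3 in a YOD1 overexpression genotype; YOD1 is an OTU-type deubiquitinase, an enzyme that removes ubiquitin from proteins. The series design states the aim of finding candidate pathways that YOD1 regulates under Ang II. How YOD1 was introduced, whether the controls carried an empty vector, the dose and time of Ang II and whether replicates were separate cultures are not given in the sources used here, and cells without Ang II were not analysed here. A p-value here therefore speaks for the spread among these libraries, which could be technical, and not for independent cultures.

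Ribosome production starts in the nucleolus, where Pol I transcribes the rRNA genes into a long precursor. Small nucleolar ribonucleoproteins (snoRNPs) guide methylation and pseudouridylation of that precursor, and assembly factors and nucleases fold, cut and trim it into the small and large subunits. The process takes up a large part of the transcription of a growing cell, and it is controlled by growth signals and by the transcription factor MYC. In renal tubular cells it is known to accompany hypertrophy and regeneration.

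The promoters below belong to the 4 members of largest positive fold change, and were read from RefSeq promoter windows of the GRCm38.p6 build. Such windows were matched for 41 of the 46 genes, and those of Npm1, Fbl, Rrs1, Bop1 and Rrp12 were not matched. Each line gives the 250 bases before the annotated start, 5′ to 3′, and capitals mark the ETS-type motif CCGGAAGT or the E-box CACGTG on either strand.
Rrp9 (chr9:106477059-106477308, plus strand): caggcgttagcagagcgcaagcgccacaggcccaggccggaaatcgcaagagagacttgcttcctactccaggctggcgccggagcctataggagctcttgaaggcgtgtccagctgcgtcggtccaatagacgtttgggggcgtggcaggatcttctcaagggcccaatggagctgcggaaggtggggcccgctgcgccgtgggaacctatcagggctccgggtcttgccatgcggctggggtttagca
Gar1 (chr3:129831397-129831646, minus strand): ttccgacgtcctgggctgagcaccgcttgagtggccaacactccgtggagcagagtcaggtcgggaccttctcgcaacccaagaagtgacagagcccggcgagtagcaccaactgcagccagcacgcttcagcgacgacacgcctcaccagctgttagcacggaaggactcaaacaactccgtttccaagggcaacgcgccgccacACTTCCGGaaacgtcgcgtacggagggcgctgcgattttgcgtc
Nop16 (chr13:54590075-54590324, minus strand): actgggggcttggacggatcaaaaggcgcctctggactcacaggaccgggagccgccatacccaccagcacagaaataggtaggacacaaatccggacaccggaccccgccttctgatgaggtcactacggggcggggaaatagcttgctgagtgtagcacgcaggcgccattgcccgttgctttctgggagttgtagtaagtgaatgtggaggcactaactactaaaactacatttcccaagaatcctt
Nhp2 (chr11:51619523-51619772, plus strand): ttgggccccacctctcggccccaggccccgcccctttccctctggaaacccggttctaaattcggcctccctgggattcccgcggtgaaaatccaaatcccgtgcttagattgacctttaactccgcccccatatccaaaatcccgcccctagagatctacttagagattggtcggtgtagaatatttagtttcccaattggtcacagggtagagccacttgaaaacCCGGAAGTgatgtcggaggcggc
Rrp9 and Nop16 held neither motif in these 250 bases, whereas Gar1 held the ETS-type motif with its first base 44 bases before the start and Nhp2 held it 23 bases before the start. Over the whole windows, which also take in 50 bases after the start, CCGGAAGT occurred in 11 of 41 member promoters (26.8%), compared with 9.24% of 8313 windows of tested genes and 4.0% of all 27025 windows. The E-box CACGTG occurred in 7 of 41 (17.1%), against 10.8% and 7.24%, and the GC box GGGCGG in 25 of 41 (61.0%), against 68.3% and 35.9%. The 3 motifs were searched on both strands, and none contains another. The 11 members with the ETS-type motif had a median log2 fold change of 0.0042, with 6 above 0, and the 30 without it had a median of 0.12, with 18 above 0. For the E-box the medians were 0.15 in 7 members with it and 0.081 in 34 without it. Both splits are descriptions of letters in a window, not of binding.

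Expression was deposited as FPKM, fragments scaled to transcript length and to the mapped fragments of the library. All 46 members had a value above 0 in every library and passed the requirement of at least 1 FPKM in at least 3 libraries, as did 11483 genes in all. Group differences below are log2 fold changes, YOD1 minus control, on the log2(FPKM + 1) scale, tested with limma and Benjamini-Hochberg adjustment over the 11483 genes. Yod1 itself was at 0.842, 0.757 and 0.684 FPKM in the controls and at 1.73, 7.56 and 1.86 FPKM in the YOD1 libraries. It passed the filter only through the YOD1 libraries, so that its groups are apart follows from the filter. Its adjusted p in limma was 0.141, which for the same reason is no independent support. Summed FPKM ran from 314172 to 352209 per library, and the read depth is unknown. A rough estimate from the steps between low values, shared by 2.73% to 3.96% of low genes, set depth relative to control 1 at 0.804 to 0.843 for YOD1 libraries and at 0.977 and 1.02 for controls 3 and 2. All 10 tubular epithelial markers examined (such as Krt18, Pax8 and Cdh16) were above the filter. Of 6 leukocyte markers, Ptprc, Cd3e, Cd79a, Adgre1 and Itgam averaged under 1 FPKM in both groups and Cd68 averaged 18.2 FPKM in the controls. All 4 endothelial markers (Pecam1, Cdh5, Kdr and Tek) averaged under 1 FPKM in both groups. Of 5 fibroblast markers, Pdgfra, Dcn and Lum averaged under 1 FPKM in both groups, and Pdgfrb and Col1a1 averaged 3.08 and 7.99 FPKM in the controls. In these bulk samples, fewer cells expressing a gene and less RNA per cell cannot be told apart.

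Of the 46 genes, 1 was higher in YOD1 libraries at an adjusted p under 0.05 in limma and 0 were lower. Among all tested genes, 0.444% were called higher (51 genes) and 0.0348% lower (4 genes), a split that was 16 higher and 7 lower after a spline correction for transcript length and G+C content. The gene was Rrp9, a WD-repeat protein of the U3 snoRNP that acts in the earliest cleavages towards the small subunit. The directions of the members were uneven: 28 of 46 (60.9%) had a log2 fold change above 0, against 36.4% of all tested genes, and the median was 0.12 against -0.10. With median-ratio scaling of the libraries 36 of 46 were above 0, against 49% of all tested genes, with a member median of 0.22 against -0.0068 for all tested genes. At an unadjusted p under 0.05 there were 9 members higher (19.6%, against 7.87% of all tested genes) and 0 lower (against 13% of all tested genes). The 9 became 5 without control 2, where 5.1% of all tested genes were higher, and 5 without YOD1 library 1, where 5.61% were; without control 2 there was also 1 member lower, Npm1, against 7.11% of all tested genes. The member median was 0.041 without control 2, and 0.067, 0.044 and 0.19 when YOD1 library 1, 2 or 3 was left out. The 3 YOD1 values lay above all 3 control values in 11 members (23.9%, against 9.77%) and below them in 0 (against 19.1%). The 11 were Polr1b, Polr1c, Fbl, Nhp2, Gar1, Imp4, Rrp9, Rrp12, Nob1, Nop16 and Nop2. By sum, the members took 0.486%, 0.458% and 0.524% of all FPKM in the controls and 0.542%, 0.538% and 0.514% in YOD1 libraries 1, 2 and 3, so the groups overlapped.

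**Figure D1:**
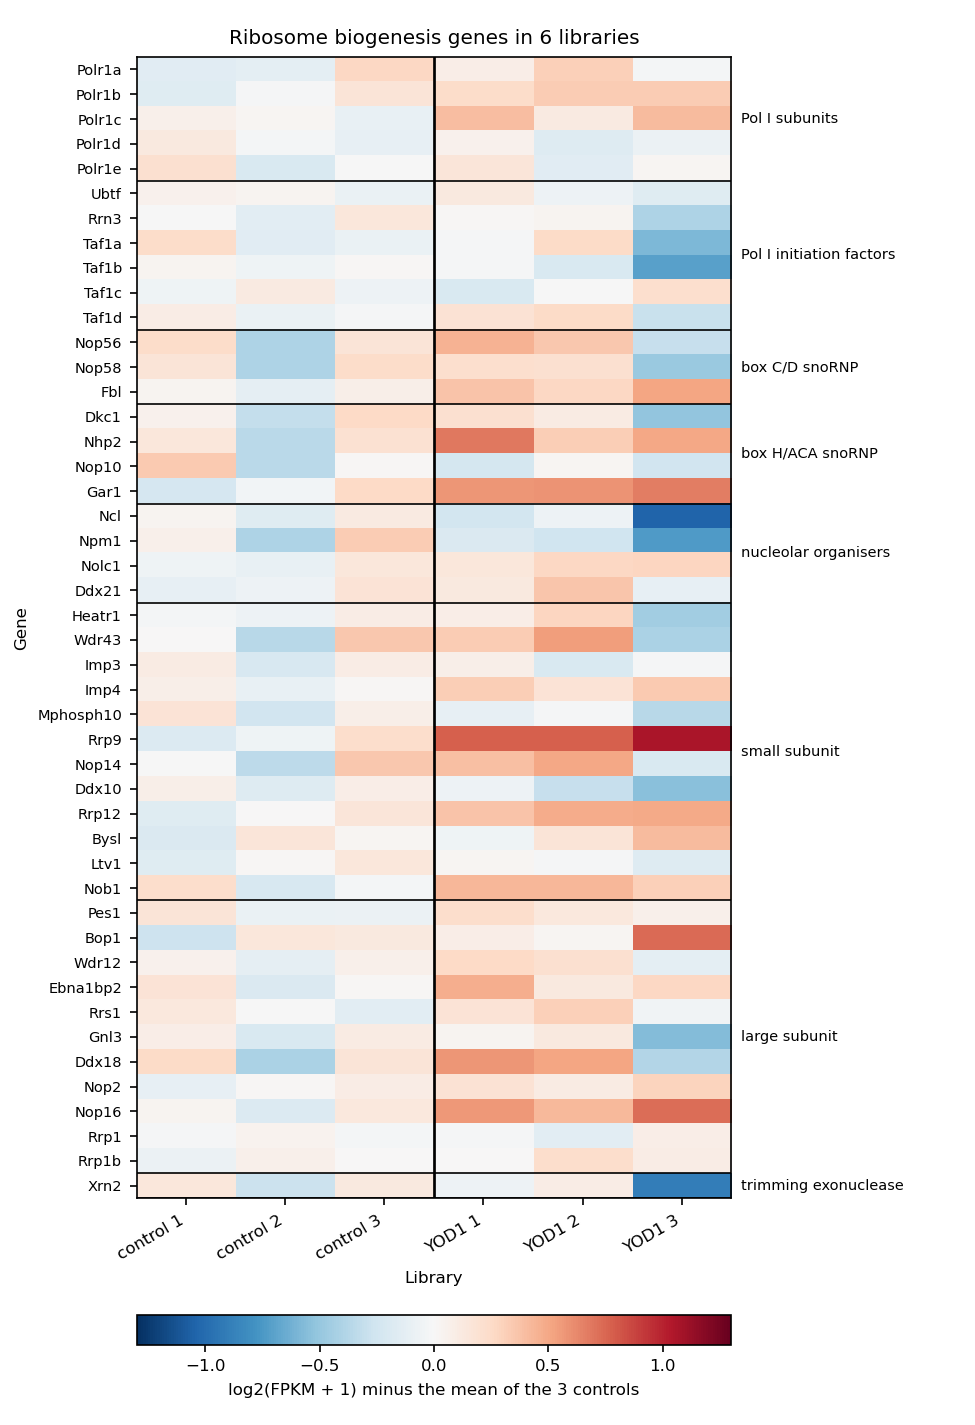
Difference of each of the 46 genes (rows, ordered by role) from the mean of the 3 controls, on the log2(FPKM + 1) scale, in the 6 libraries (columns). Red is above and blue below the control mean; YOD1 library 3 holds the lowest value of 17 genes and the highest of 14.

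The 5 Pol I subunits in the list had a median log2 fold change of 0.12, with 4 above 0 and none past the adjusted threshold. At unadjusted p under 0.05 there were 2 of the 5 subunits, Polr1b and Polr1c, both higher, against 7.87% of all tested genes. Polr1c, a subunit of the assembly core that Pol I shares with RNA polymerase III, was at 72.9, 70.7 and 65.0 FPKM in the controls and at 91.9, 75.3 and 92.9 FPKM in the YOD1 libraries. The groups did not overlap, though YOD1 library 2 came close to control 1 (log2 fold change 0.31, SE 0.13, adjusted p = 0.220 in limma). Polr1b, the second largest catalytic subunit, averaged 18.6 ± 2.25 FPKM in control and 23.1 ± 0.887 FPKM in YOD1 libraries (mean ± SD, n = 3), with a log2 fold change of 0.30 and an adjusted p of 0.234 in limma. Polr1a, the largest subunit, had a log2 fold change of 0.12, Polr1e, of the initiation and elongation heterodimer, 0.012, and Polr1d, the partner of Polr1c in the core, -0.062. The 5 subunits were present at unequal levels, from 3.47 FPKM for Polr1e to 69.5 FPKM for Polr1c on average in the controls.

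The initiation factors place Pol I on the rRNA promoter, and their 6 genes had a median log2 fold change of -0.075, with 2 above 0. All 6 overlapped between groups. Taf1b, a subunit of the promoter selectivity factor that resembles TFIIB, had the lowest p among them. It was at 2.40, 2.20 and 2.36 FPKM in the controls and at 2.29, 1.89 and 1.03 FPKM in the YOD1 libraries. The value in YOD1 library 3 was the lowest of the 6, and library 1 lay within the control range (log2 fold change -0.31, SE 0.19, adjusted p = 0.366 in limma). Ubtf, which opens rRNA gene chromatin and recruits the selectivity factor, averaged 36.0 ± 1.90 FPKM in control and 35.2 ± 3.65 FPKM in YOD1 libraries (mean ± SD, n = 3). Rrn3, the factor that couples growth signals to Pol I, had a log2 fold change of -0.12. The other subunits of the selectivity factor were at -0.12 for Taf1a, 0.0042 for Taf1c and 0.051 for Taf1d.

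Box C/D snoRNPs methylate rRNA, and among their 3 proteins the methyltransferase fibrillarin (Fbl) had the lowest p. Fbl was at 52.0, 47.0 and 53.9 FPKM in the controls and at 66.0, 61.6 and 73.2 FPKM in the YOD1 libraries. All 3 YOD1 values were above all controls (log2 fold change 0.39, SE 0.12, adjusted p = 0.149 in limma). Its partners Nop56 and Nop58, which form the scaffold of the particle, had log2 fold changes of 0.17 and -0.017, each with its groups overlapping. Nop58 was at 2.74 FPKM on average in the controls against 39.4 FPKM for Nop56 and 50.9 FPKM for Fbl, although the 3 proteins sit in the same particle. Their annotated transcripts differ, with 9507 bases and 41.0% G+C for Nop58, 1877 and 50.5% for Nop56, and 1197 and 56.7% for Fbl. How far such differences set FPKM levels between genes was not tested.

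Box H/ACA snoRNPs convert uridines of rRNA to pseudouridine. Of their 4 proteins, 2 had groups apart with YOD1 higher, against 9.77% of all tested genes, and 4 genes are too few to compare with that share. Gar1, which helps substrate loading, was at 15.2, 17.4 and 21.5 FPKM in the controls and at 27.1, 27.3 and 28.9 FPKM in the YOD1 libraries. The YOD1 values lay close together and above every control (log2 fold change 0.61, SE 0.15, 95% interval 0.28 to 0.94, adjusted p = 0.0984 in limma). Nhp2, which binds the RNA of the particle, was at 140, 98.9 and 145 FPKM in the controls and at 203, 157 and 179 FPKM in the YOD1 libraries. Control 2 was the lowest of the 6, and the gap between groups was small beside the spread within them (log2 fold change 0.50, SE 0.17, adjusted p = 0.167 in limma). The pseudouridine synthase dyskerin (Dkc1) and the small protein Nop10 had log2 fold changes of -0.062 and -0.15, both with overlapping groups. Dkc1 was at 2.86 FPKM and Nhp2 at 128 FPKM on average in the controls, and their transcripts held 43.6% and 54.1% G+C.

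**Figure D2:**
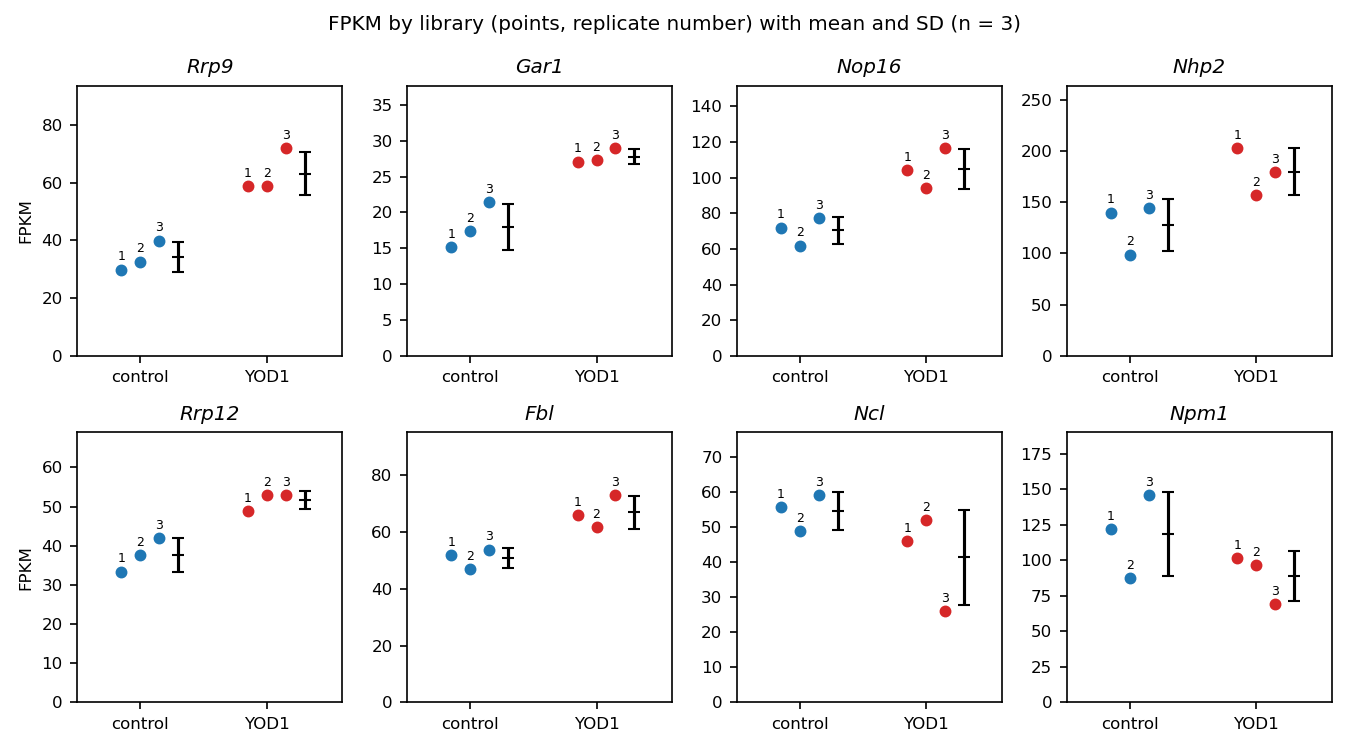
FPKM of 8 genes in the 3 control (blue) and 3 YOD1 (red) libraries, each point numbered by its replicate, with mean and SD (n = 3) in black; each vertical axis starts at 0. The groups are apart for Rrp9, Gar1, Nop16, Nhp2, Rrp12 and Fbl, and for Ncl and Npm1 YOD1 library 3 is the lowest.

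Among the 4 organisers of the nucleolus, none passed the test and all overlapped between groups. Nucleolin (Ncl), which binds nascent rRNA and its chromatin, was at 55.7, 48.8 and 59.2 FPKM in the controls and at 46.1, 52.0 and 26.0 FPKM in the YOD1 libraries. Only YOD1 library 3 lay well below the others (log2 fold change -0.45, SE 0.23, adjusted p = 0.287 in limma). Nucleophosmin (Npm1), a histone chaperone that forms the granular part of the nucleolus, was at 122, 87.7 and 146 FPKM in the controls and at 102, 96.6 and 69.1 FPKM in the YOD1 libraries. YOD1 libraries 1 and 2 lay within the control range, and library 3 was the lowest (log2 fold change -0.40, SE 0.21, adjusted p = 0.296 in limma). Npm1 has processed pseudogene copies in the mouse genome, so its assignment of reads is uncertain. Nolc1, a chaperone of snoRNPs, and Ddx21, a helicase that couples Pol I with processing, had log2 fold changes of 0.23 and 0.13.

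The 12 small subunit factors held the single call. Rrp9 was at 29.8, 32.6 and 39.9 FPKM in the controls and at 58.7, 58.8 and 71.8 FPKM in the YOD1 libraries. Every YOD1 value was well above the highest control, and the ratio of means was 1.85 (log2 fold change 0.87, SE 0.15, 95% interval 0.54 to 1.20, adjusted p = 0.0428 in limma). The call was kept in 4 of 13 alternative fits and lost in 9, among them the spline correction for length and G+C content (log2 fold change 0.69, adjusted p = 0.0671). Leaving out 1 library gave adjusted p values of 0.144 without control 1, 0.178 without control 2, 0.0200 without control 3, 0.1002 without YOD1 library 1, 0.0891 without library 2 and 0.0504 without library 3, with log2 fold changes from 0.78 to 0.99. Exons of Rrp9 overlap Parp3 on the opposite strand, and the strand of the libraries is not stated; Parp3 was at 7.59, 7.05 and 5.15 FPKM in the controls and at 4.72, 4.64 and 3.25 FPKM in the YOD1 libraries, the opposite direction.

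Rrp12, a repeat protein needed for export and maturation of the pre-40S particle, was at 33.4, 37.6 and 41.9 FPKM in the controls and at 49.0, 52.9 and 53.0 FPKM in the YOD1 libraries. The groups were apart (log2 fold change 0.45, SE 0.13, adjusted p = 0.125 in limma). Nob1, the endonuclease that makes the final cut of small subunit rRNA, was at 31.9, 23.4 and 26.6 FPKM in the controls and at 36.9, 36.8 and 33.8 FPKM in the YOD1 libraries. Here too all YOD1 values exceeded the controls, with YOD1 library 3 nearest to control 1 (log2 fold change 0.39, SE 0.14, adjusted p = 0.179 in limma). Imp4, of the U3 processome, was the last of 4 among the 12 small subunit genes with groups apart (log2 fold change 0.28). Of all tested genes, 9.77% had groups apart with YOD1 higher. The log2 fold changes of the other 8 ranged from -0.30 for Ddx10, a helicase, to 0.23 for Nop14. Among the other processome proteins, Wdr43 was at 0.15, Heatr1 at -0.029, Imp3 at -0.043 and Mphosph10 at -0.16. Bysl and Ltv1, which act later on the maturing particle, were at 0.18 and -0.053. All 8 had overlapping groups.

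For the 11 large subunit factors the median log2 fold change was 0.15, with 9 above 0 and none past the adjusted threshold. Nop16, a nucleolar factor of the large subunit precursor, was at 72.0, 61.9 and 77.2 FPKM in the controls and at 104, 94.1 and 116 FPKM in the YOD1 libraries. The groups were clearly apart (log2 fold change 0.57, SE 0.14, 95% interval 0.26 to 0.88, adjusted p = 0.0992 in limma). Nop2, a methyltransferase of large subunit rRNA, also had groups apart, at a smaller log2 fold change of 0.20. The PeBoW complex joins Pes1, Bop1 and Wdr12, whose log2 fold changes were 0.15, 0.28 and 0.11, with levels of 93.2, 151 and 1.86 FPKM on average in the controls. Their transcripts held 50.3%, 58.2% and 40.4% G+C, in the same order. The nucleolar factor Ebna1bp2 was at 0.29, the helicase Ddx18 at 0.24 and Rrs1, which helps bring the 5S particle into the subunit, at 0.15. The related proteins Rrp1b and Rrp1 were at 0.11 and -0.022, and the GTP-binding nucleolar protein Gnl3 was at -0.13. Outside the subunit groups, Xrn2, the exonuclease that trims rRNA and snoRNA ends, was at 18.2, 13.3 and 17.9 FPKM in the controls and at 15.6, 17.5 and 8.31 FPKM in the YOD1 libraries. YOD1 library 3 was again the lowest (log2 fold change -0.29, SE 0.25, adjusted p = 0.509 in limma).

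**Figure D3:**
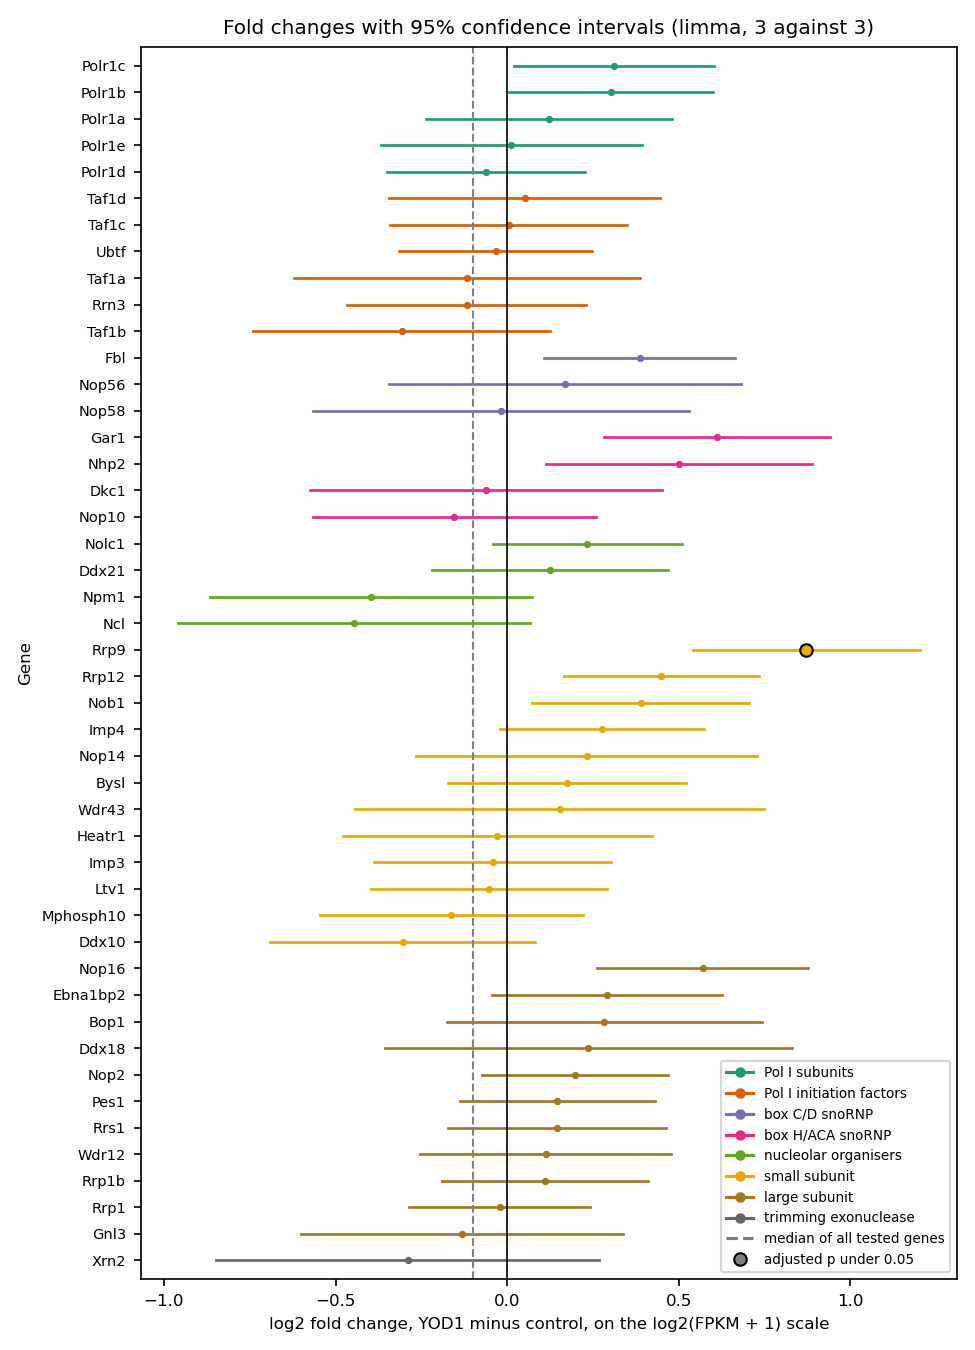
Log2 fold change, YOD1 minus control, of the 46 genes with 95% confidence intervals, grouped by role; the dashed line is the median of all tested genes (-0.10). The point with a dark edge is Rrp9, the only gene with an adjusted p under 0.05 in limma.

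In the authors' deposited table, 0 of the 46 genes carried the authors' mark of significance, which was set where q was under 0.05 and the absolute log2 fold at least 1, and was given to 1.75% of the tested genes. The authors' deposited table gave q values of 0.000229 for Rrp9, 0.0235 for Gar1 and 0.0244 for Nop16, the 3 members with q under 0.05. The share of all tested genes with q under 0.05 alone is not given here, so these 3 have no background to be read against.

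The YOD1 libraries were not alike for these genes, and their difference varied with base composition. Over the 46 members the median difference from the control mean was 0.15 in YOD1 library 1, 0.17 in library 2 and -0.062 in library 3, on the log2(FPKM + 1) scale. YOD1 library 3 held the lowest of the 6 values in 17 members (37.0%), against 42.5% of all tested genes, and the highest in 14 (30.4%), against 16.3%. Among the controls, control 2 held the lowest value of 14 members (30.4%), against 16% of all tested genes, and the highest of 0, against 18.3%. The 17 lowest in YOD1 library 3 included Ncl, Npm1, Xrn2, Taf1b, Dkc1 and Nop58. Those with the highest value in YOD1 library 3 included Rrp9, Gar1 and Nop16.

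The G+C content of the longest annotated transcript ran from 40.4% (Wdr12) to 60.9% (Taf1c) among members, with a median of 50.4%, near the 51.3% of all tested genes. The coding starts below are those of Rrp9 and Ncl. These members lay furthest above and below their control means in YOD1 library 3 (1.06 and -1.04, log2(FPKM + 1) scale). Picked by those differences, the pair is an example and not a test. Shown are the first 150 coding bases in GENCODE transcripts of GRCm38, 5′ to 3′, with G and C in capitals, and the spans include introns.
Rrp9 (ENSMUST00000047721, chr9:106477348-106477733, plus strand): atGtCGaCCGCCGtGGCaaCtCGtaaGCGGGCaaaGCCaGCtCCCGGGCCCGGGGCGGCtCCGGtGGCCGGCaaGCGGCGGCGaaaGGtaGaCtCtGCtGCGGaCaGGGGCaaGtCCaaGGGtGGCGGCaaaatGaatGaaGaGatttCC
Ncl (ENSMUST00000027438, chr1:86357438-86359223, minus strand): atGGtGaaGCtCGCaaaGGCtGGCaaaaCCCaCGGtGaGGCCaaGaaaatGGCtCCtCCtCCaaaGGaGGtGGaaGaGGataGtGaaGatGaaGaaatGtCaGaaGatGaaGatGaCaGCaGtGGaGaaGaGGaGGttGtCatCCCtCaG
These stretches held 65.3% G+C in Rrp9 and 50.0% in Ncl, and the whole transcripts 59.8% and 42.8%. Across the 46 members, the difference of YOD1 library 3 from the mean of libraries 1 and 2 had a Spearman rho of 0.774 with G+C content, and across 11386 tested genes 0.617. The fold change had a rho of 0.596 with G+C content among members, against 0.237 over all genes, and of -0.0931 with transcript length, against -0.419. With mean level its rho was 0.491 among members, against 0.202. Level itself had a rho of 0.568 with G+C content among members, against 0.323. These correlations are across genes within shared libraries, so the genes are not independent replicates. The parts of level and of G+C content in the fold changes were not tested apart. In the 23 members of higher G+C content (50.5% to 60.9%), 19 had a log2 fold change above 0, 10 had groups apart and 1 was lowest in YOD1 library 3. In the 23 of lower G+C content (40.4% to 50.3%), 9 were above 0, 1 had groups apart and 16 were lowest in YOD1 library 3. The median difference from the control mean in YOD1 library 3 was 0.29 in the G+C-rich members and -0.40 in the others, while in libraries 1 and 2 it was 0.21 and 0.16. The median control level was 36.0 FPKM in the G+C-rich members and 7.25 FPKM in the others. Split at the same G+C content, 44.1% and 26.6% of all tested genes were above 0. The shares of all tested genes with groups apart, or lowest in YOD1 library 3, are not given here for this split. The member counts of these features by G+C content therefore have no background to be read against. The part of base composition in the member counts was not tested beyond the spline correction, under which 31 of 46 members had a log2 fold change above 0, against 35.5% of all tested genes, and the member median was 0.17. Without YOD1 library 3, 36 of 46 members were above 0, against 42% of all tested genes, and the member median was 0.19 against -0.052.

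**Figure D4:**
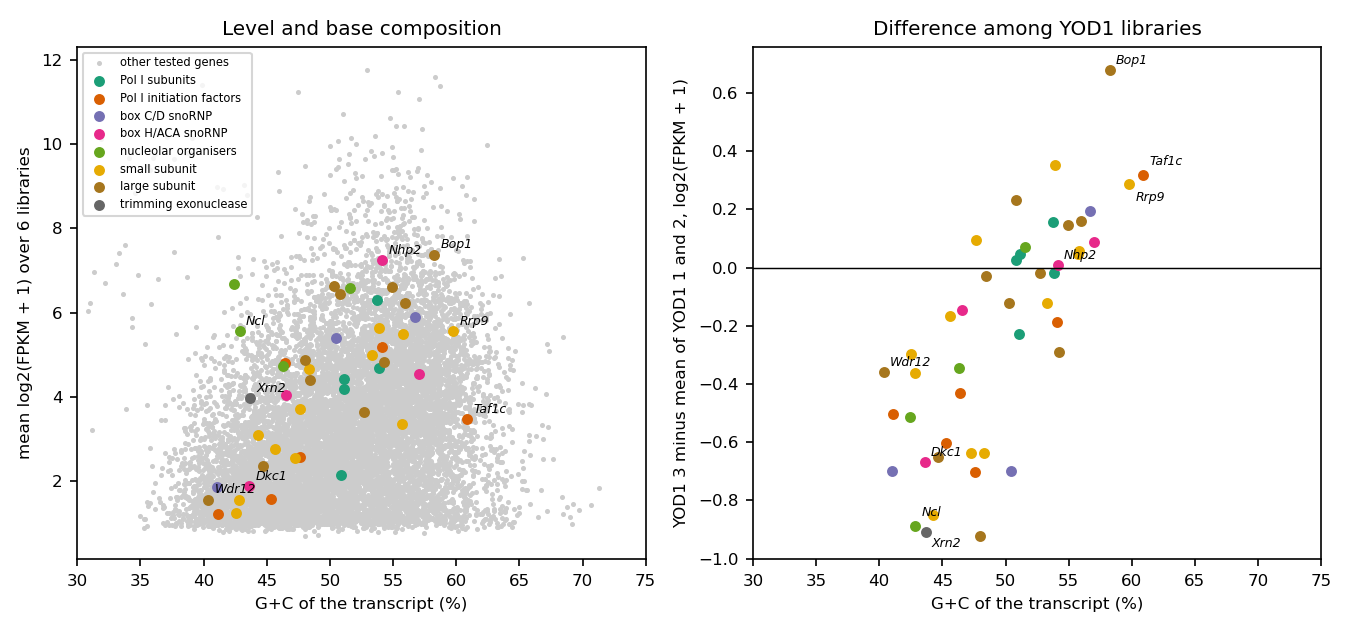
Left, mean log2(FPKM + 1) over the 6 libraries against G+C content of the transcript for the 46 genes (coloured by role) and other tested genes (grey, shown between 30% and 75%). Right, YOD1 library 3 minus the mean of YOD1 libraries 1 and 2 for the 46 genes, with rho 0.774: genes of low G+C content such as Ncl and Xrn2 lie below 0 and Rrp9, Taf1c and Bop1 above.

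Further genes of the pathway, not among the 46, were taken from lists of 149 genes, of which 143 were tested. Of these, 75 (52.4%) had a log2 fold change above 0, against 36.4% of all tested genes, and the median was 0.021 against -0.10. By limma 0 were called at an adjusted p under 0.05, and at an unadjusted p under 0.05 there were 20 higher (14%, against 7.87% of all tested genes) and 5 lower (3.5%, against 13%). The groups were apart with YOD1 higher in 30 (21%, against 9.77%) and lower in 10 (6.99%, against 19.1%). The lowest adjusted p was that of Exosc4, a ring subunit of the RNA exosome, the complex that trims rRNA precursors from the 3′ end. Exosc4 was at 47.6, 46.8 and 69.3 FPKM in the controls and at 92.6, 101 and 96.6 FPKM in the YOD1 libraries (log2 fold change 0.84, SE 0.16, adjusted p = 0.0609 in limma). Its groups were apart, with control 3 nearest to the YOD1 libraries.

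By list, the medians were 0.13 for 13 exosome genes, 0.22 for 10 snoRNP assembly genes, 0.090 for 9 other Pol I genes, 0.025 for 50 other large subunit factors, 0.011 for 48 other small subunit factors and -0.046 for 13 RNA polymerase III subunits. For 5 of these lists, the 2 genes of lowest p were Exosc4 and Exosc1 (0.49), the helicase Ruvbl2 (0.48) and Znhit3 (0.40), the silencing factor Baz2a (-0.48) and the shared polymerase subunit Polr2f (0.32), the large subunit factors Mrto4 (0.63) and Noc2l (0.54), and the small subunit factors Tsr3 (0.60) and Wdr46 (0.51), all log2 fold changes. Of the RNA polymerase III subunits, Polr3d was at 0.31. None of these passed the adjusted test. Of 9 tested genes of the MYC network, 0 were above 0, against 36.4% of all tested genes, and the median was -0.37 against -0.10. At the lowest p were Mxd4 (-0.51, adjusted p = 0.133 in limma) and Mxi1 (-0.44, adjusted p = 0.147 in limma), both repressors that compete with MYC for MAX. The list holds such repressors beside Myc, so its median is no measure of MYC activity. Myc itself was at 140, 97.6 and 96.7 FPKM in the controls and at 110, 119 and 99.3 FPKM in the YOD1 libraries, and its groups overlapped (log2 fold change -0.0096, SE 0.16).

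**Figure D5:**
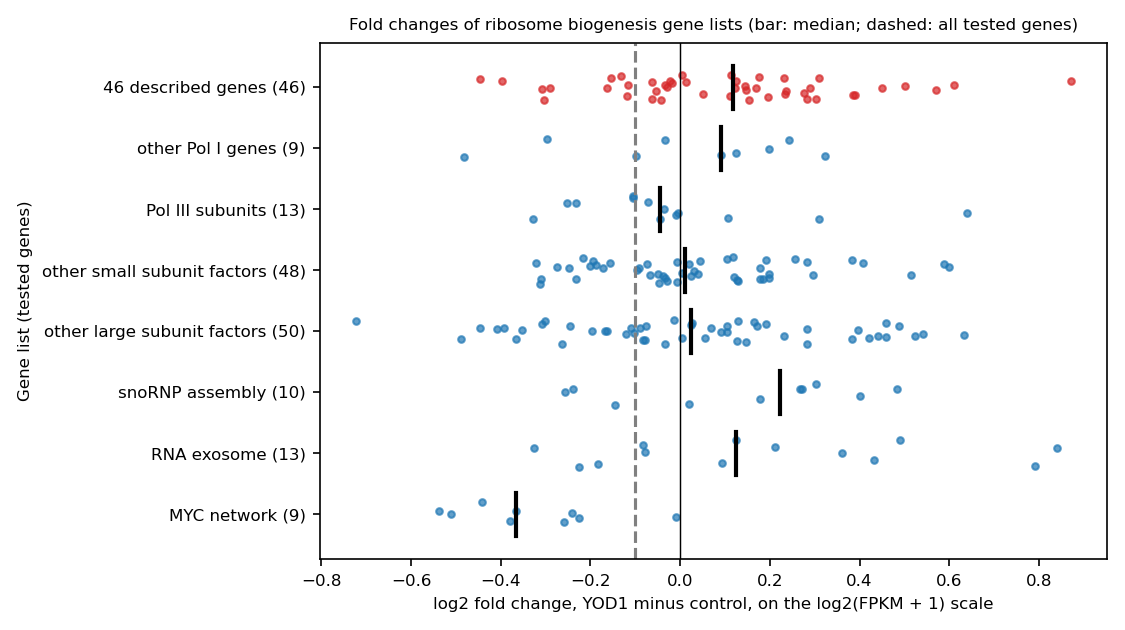
Log2 fold change, YOD1 minus control, of the tested genes of each list (points; number tested in brackets), with the list median (black bar) and the median of all tested genes (dashed, -0.10). The 46 genes (red) have a median of 0.12 and the MYC network one of -0.37.

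Pol I makes rRNA, and of 6 genes listed as rRNA-derived, 3 had values in this poly(A) RNA and 2 were tested. Rn18s-rs5 was at 2351, 1324 and 1803 FPKM in the controls and at 10604, 12732 and 7638 FPKM in the YOD1 libraries, a log2 fold change of 2.51 (adjusted p = 0.00631 in limma). AY036118 was at 9.0, 4.78 and 17.9 FPKM in the controls and at 182, 424 and 71.1 FPKM in the YOD1 libraries, with a log2 fold change of 4.11 (adjusted p = 0.0181 in limma). Both were higher in every YOD1 library than in any control. Annotated rRNA took 0.449% to 0.775% of FPKM in control libraries and 2.22% to 4.07% in YOD1 libraries. Poly(A) selection removes most rRNA, and the efficiency of that step, which can set these values, was not tested. With rRNA left out and FPKM rescaled, the member median was 0.074 against -0.14 for all tested genes, and Rrp9 had a log2 fold change of 0.82 (adjusted p = 0.0541 in limma).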

How the data were processed

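Poly(A) RNA of 6 TCMK1 samples was sequenced in paired ends, per the labels' protocols. The authors deposited 1 table of FPKM per gene and library, and beside it a p-value, a q-value, a fold ratio and its log2, per the file headers. Tools in the submitters' processing notes are StringTie 1.3.0, HISAT2 2.0 and Bowtie 0.12.2, and the build named there is mm8; the test behind the authors' p-values and the library strand are not given in the sources used here. Columns of per-sample values left unused numbered 0.

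On the log2(FPKM + 1) scale, 11483 of 28789 genes were tested, those that reached 1 FPKM in 3 or more of the 6 libraries. The test was limma 3.58.1, run in R 4.3.3 (two-sided, variances moderated along a trend with level, Benjamini-Hochberg adjustment over all tested genes, threshold 0.05). Changes of low genes are understated on this scale. With 3 libraries a group the smallest exact permutation p is 0.1, and no such test was run.

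The members, gene lists and tests were chosen with earlier results of these data known. Every member is named. Values per library are given for members that passed, for the 10 largest absolute fold changes and for the lowest p in each role; of further lists, the genes that passed or the 2 of lowest p are named, except for 1 result that is not reported here, and other values were added after they were seen. Transcript length and G+C content came from the longest protein-coding transcript in GENCODE M21, matched by transcript identifier for 99.2% of tested genes and 100% of members. That annotation and the RefSeq windows belong to another build than mm8, and the coordinates printed are theirs. The 13 alternatives were no filter, a filter at 5 FPKM, a pseudocount of 0.1, median-ratio scaling, rescaling without rRNA, a spline correction (4 degrees of freedom) for length and G+C content, a replicate block, and the removal of single libraries. Python 3.11.15, numpy 2.4.6, pandas 2.3.3 and matplotlib 3.10.9 were used.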

Additional observations from a re-analysis of the deposited data

How the results depend on the processing

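Genes called higher by limma numbered 51 and lower 4. They were 0 and 0 with no filter (1411 and 2016 at an unadjusted p under 0.05), 162 and 9 with median-ratio scaling, 28 higher with rRNA left out, 16 and 7 with the length and G+C correction, and 33 and 8 with the replicate number as a block. Leaving out 1 library gave 17 to 145 higher and 0 to 95 lower, and in both directions together 29 without control 1, 18 without control 2, 240 without control 3, and 33, 37 and 114 when YOD1 library 1, 2 or 3 was left out. Of the members, 0 were called with no filter, with a pseudocount of 0.1, with rRNA left out and with the length and G+C correction. At an unadjusted p under 0.05, 10, 9, 7 and 11 members were higher in these fits. The shares of all tested genes were 4.9%, 7.67%, 6.22% and 6.95%. With the length and G+C correction 1 member was lower, Npm1, against 16.7% of all tested genes. Without YOD1 library 2, 1 member was lower too, against 16.3%. At the adjusted threshold 0 to 2 members were called with 1 library left out. Without control 3, the 2 were Rrp9 and Gar1. The members above 0 numbered 25 to 36 and their median ranged from 0.041 to 0.19 with 1 library left out, and was 0.22 with median-ratio scaling. Rrp9 kept its direction throughout: its log2 fold change was 0.87 with no filter (adjusted p = 0.260 in limma), 0.89 with a pseudocount of 0.1 (0.0573), 0.82 with rRNA left out (0.0541), 0.69 with the length and G+C correction (0.0671) and 0.78 to 0.99 with 1 library left out. The cause of these losses was not tested.

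Small fold changes changed sign, none of them called. With median-ratio scaling these were Polr1d at 0.045, Ubtf at 0.075, Nop58 at 0.0604, Dkc1 at 0.016, Heatr1 at 0.061, Imp3 at 0.059, Ltv1 at 0.041 and Rrp1 at 0.088. With rRNA left out they were Polr1e at -0.029 and Taf1c at -0.044. With the length and G+C correction they were Ubtf at 0.071, Rrn3 at 0.0017, Taf1c at -0.068, Taf1d at -0.0096, Nop58 at 0.27, Dkc1 at 0.032 and Heatr1 at 0.18. With 1 library left out the sign changed for 18 members, whose ranges were -0.12 to 0.00105 for Polr1d, -0.30 to 0.12 for Taf1a, -0.10 to 0.11 for Taf1c, -0.22 to 0.22 for Nop58, -0.33 to 0.014 for Nop10, -0.14 to 0.033 for Imp3, -0.089 to 0.11 for Polr1e, -0.034 to 0.40 for Nop56, -0.041 to 0.44 for Wdr43, -0.22 to 0.16 for Dkc1, -0.18 to 0.18 for Heatr1, -0.13 to 0.018 for Ltv1, -0.049 to 0.22 for Taf1d, -0.076 to 0.035 for Rrp1, -0.11 to 0.028 for Ubtf, -0.19 to 0.025 for Rrn3, -0.26 to 0.085 for Gnl3 and -0.48 to 0.013 for Xrn2.

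Same-numbered control and YOD1 libraries had correlations of deviations from the group means of 0.30, -0.12 and -0.11. Not every library correlated best with its own number. Deviations within a group are tied to each other, so these correlations cannot decide whether the numbers pair the samples. With the replicate block Rrp9 had an adjusted p of 0.0440 in limma. Read depth is not given, so intervals for single values could not be made.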

Other observations

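Of the 46 genes, 19 have exons that overlap another gene in GENCODE M21, and 17 overlap a gene on the opposite strand other than small RNA genes; Gar1 and Nop16 are not among them. Pbrm1, a chromatin remodelling subunit that overlaps Gnl3, was at 3.14, 2.90 and 3.60 FPKM in the controls and at 1.86, 2.49 and 0.470 FPKM in the YOD1 libraries, with a log2 fold change of -0.78 (adjusted p = 0.180 in limma). Rmnd5b, which overlaps Nhp2, had a log2 fold change of -0.049, and Ccnd3, a cyclin gene that overlaps Bysl, one of 0.10. Which fragments of these pairs came from which strand was not tested.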
